A study of Mus musculus with 8 samples.

Results

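The isozyme genes of 4 steps of glycolysis were followed in mouse liver tumors: the hexokinases Hk1 and Hk2, the phosphofructokinases Pfkl and Pfkp, the aldolases Aldoa and Aldoc, and the pyruvate kinases Pkm and Pklr. They were found through the transcript accession of each experimental probe, which gave 10 probes for 8 genes, out of 55681 probes and 14312 genes tested. All 8 genes were tested. Each of 8 arrays compared a hepatocellular carcinoma (HCC) of a male miR-122 KO mouse, labelled with Cy5, with liver of a male miR-122 floxed mouse of matched age, labelled with Cy3. Mice of both genotypes had a mixed C57BL/6J and 129S/Svj background. The labels also call the controls wild type. They state neither an age nor the Cre that removed the gene, nor whether the control RNA came from 8 animals, and no KO liver without a tumor was measured. The dyes were not swapped, so a dye effect and the difference between tumor and control cannot be told apart. The samples are bulk tissue, in which fewer cells of a type and less RNA per cell cannot be told apart.

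Glycolysis turns glucose into pyruvate, and several of its steps can be run by different isozymes. Among the 8 genes, Pfkl and Pklr encode the forms of phosphofructokinase and pyruvate kinase typical of adult hepatocytes, which can switch between using and making glucose. Fetal liver, other tissues and many liver cancers use hexokinases that bind glucose tightly (Hk1 and Hk2), Pfkp, aldolases A and C, and the M form of pyruvate kinase (Pkm). The Aldoa transcript is a published target of miR-122, the main microRNA of hepatocytes.

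Start regions of 4 of the 8 genes are shown because they hold a match to a searched motif; for Aldoa, 1 of its 2 overlapping windows with the match is shown. The windows of Hk1, Pfkl, Pfkp and Aldoc held no match and are not shown. The windows are the 250 bases before an annotated start in RefSeq (build GRCm38.p6), which listed 14 starts for the 8 genes. Capitals mark the core of the hypoxia response element, ACGTG on either strand, in Hk2, Aldoa and Pkm, and the carbohydrate response element of Pklr, searched as CACGGG and CCCGTG with any 5 bases between them, which is the site known for binding of ChREBP (the product of Mlxipl).
Hk2, chr6:82774455-82774704, minus strand: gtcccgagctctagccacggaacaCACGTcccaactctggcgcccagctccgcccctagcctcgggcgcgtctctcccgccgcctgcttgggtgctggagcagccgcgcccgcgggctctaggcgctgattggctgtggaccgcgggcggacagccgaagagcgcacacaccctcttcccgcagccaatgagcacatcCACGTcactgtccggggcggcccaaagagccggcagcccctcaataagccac
Aldoa, chr7:126799255-126799504, minus strand: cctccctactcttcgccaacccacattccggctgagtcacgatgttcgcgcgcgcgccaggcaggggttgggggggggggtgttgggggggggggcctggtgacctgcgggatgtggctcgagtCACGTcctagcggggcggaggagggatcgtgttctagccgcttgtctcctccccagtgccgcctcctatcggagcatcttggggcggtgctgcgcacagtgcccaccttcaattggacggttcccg
Pkm, chr9:59656977-59657226, plus strand: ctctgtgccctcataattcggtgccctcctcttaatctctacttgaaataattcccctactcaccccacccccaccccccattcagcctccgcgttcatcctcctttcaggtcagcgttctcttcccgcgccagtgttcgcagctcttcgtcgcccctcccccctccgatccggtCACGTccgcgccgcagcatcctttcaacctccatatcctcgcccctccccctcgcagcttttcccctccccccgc
Pklr, chr3:89136373-89136622, plus strand: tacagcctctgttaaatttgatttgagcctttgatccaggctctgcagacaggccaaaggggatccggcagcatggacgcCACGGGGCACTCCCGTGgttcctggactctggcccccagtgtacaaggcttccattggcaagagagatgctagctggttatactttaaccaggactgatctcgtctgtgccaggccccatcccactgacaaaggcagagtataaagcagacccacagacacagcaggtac

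The hypoxia core was present in 4 of the 14 windows, which belong to 3 of the 8 genes and include 2 overlapping windows of Aldoa. Hk2 held it 2 times. Of 32851 windows of the same length over all genes, 16.6% held it. The carbohydrate element was found in 1 of the 32851 windows, that of the downstream Pklr start shown above, and it was searched for because it is known from this gene. The E-box CACGTG, whose last 5 letters are the hypoxia core, was in none of the 14 windows, against 6.02% of all. A match is only a run of letters in these windows.

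Of the 8 isozyme genes, 4 were higher in tumor and 0 were lower, at an adjusted p under 0.05 and a difference of at least 2-fold (limma with Benjamini-Hochberg adjustment over 14312 genes). Over all genes tested, 9.54% were called higher and 5.94% lower by the same rule. The genes called were Aldoa, Pfkp, Pkm and Hk2. The liver forms Pfkl and Pklr, and Hk1 and Aldoc, were not called. The median log2 ratio of the 8 genes was 0.95, and that of all genes tested was 0.03.

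**Figure D1:**
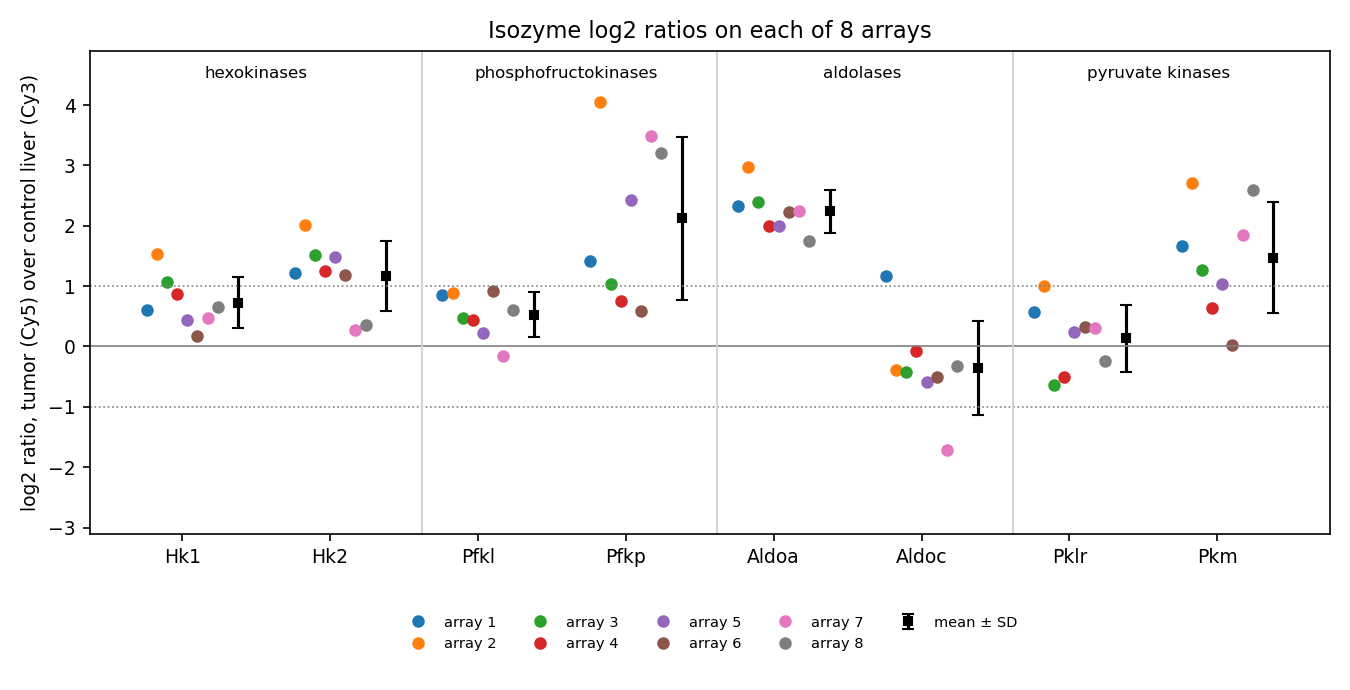
Log2 ratio of tumor over control liver on each of 8 arrays for the 8 isozyme genes, with mean ± SD in black; dotted lines mark a 2-fold difference. Aldoa lies between 1.75 and 2.97 on every array, Pfkp spreads from 0.58 to 4.05, and Aldoc runs from -1.71 to 1.16.

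Hexokinases trap glucose in the cell by phosphorylating it. For Hk2, the insulin-regulated form of muscle and fat, the log2 channel intensity (level) ranged from 8.48 to 10.02 in tumor (median 8.78) and from 7.23 to 9.74 in control (median 7.48). The ranges overlapped because of the control on array 7, which stood at 9.74 against 7.23 to 8.15 on the other arrays. The tumor channel of array 7 was also the highest, at 10.02 against 8.48 to 9.74. Within arrays the tumor was higher on 8 of 8, and Hk2 rose by 1.17 ± 0.58 on the log2 scale (SD, n = 8), or 2.24-fold (limma, adjusted p = 6.77e-04). The ratio was smallest on arrays 7 and 8, at 0.28 and 0.36, and lay between 1.19 and 2.01 on the others. The mean was 1.50 in slide row 1 (arrays 1 to 4) and 0.83 in row 2. The rows were read from the position in the scan names, not from the labels.

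Hk1, a form found in most tissues and in red blood cells, had levels of 9.53 to 10.66 in tumor (median 9.93) and 8.99 to 9.40 in control (median 9.32). Its groups did not overlap, which held for 8.31% of all genes tested with tumor above control and 8.45% with tumor below. Its log2 ratio of 0.73 ± 0.42 was above 0 on 8 arrays but under the size required for a call (limma, adjusted p = 0.00207). The ratio was 1.02 in slide row 1 and 0.43 in row 2. A second, dimmer probe of Hk1 gave 0.15 ± 0.18 and did not pass the test (limma over all tested probes, adjusted p = 0.125).

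Phosphofructokinase catalyses the main committed step of glycolysis. Pfkp, the platelet form, had levels of 8.00 to 11.80 in tumor (median 9.28) and 7.05 to 7.75 in control (median 7.41), so the groups did not overlap. Tumors 2, 5, 7 and 8 were high, at 10.01 to 11.80, and tumors 1, 3, 4 and 6 lay between 8.00 and 8.55. Pfkp rose by 2.12 ± 1.35 on the log2 scale (4.35-fold, 8 of 8 arrays; limma, adjusted p = 0.00199), and 2.26% of all genes tested had a larger SD. A second probe, well above background on 3 tumor and 4 control channels, had a ratio of 0.12 ± 0.31 (limma over all tested probes, adjusted p = 0.394), so the rise rests on the brighter probe. That dim probe was also highest on arrays 2, 7 and 8, at 0.60, 0.46 and 0.35, against -0.18 to 0.02 on the others, array 5 included. On array 8 its tumor channel was not well above background.

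Pfkl, the liver form, had levels of 9.80 to 10.98 in tumor (median 10.60) and 9.76 to 10.33 in control (median 10.01), with overlap. Its log2 ratio was 0.53 ± 0.37, above 0 on 7 arrays, with an adjusted p of 0.00639 (limma), and was too small for a call. The exception was array 7, at -0.15. The control spread little for either gene (SD 0.24 for Pfkp and 0.20 for Pfkl), while the tumor levels had an SD of 1.54 for Pfkp and 0.42 for Pfkl.

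Aldolase splits fructose bisphosphate into the trioses of lower glycolysis. Aldoa, the form of muscle and fetal tissue, had levels of 16.54 to 17.66 in tumor (median 17.04) and 14.54 to 15.48 in control (median 14.71). The groups did not overlap, and every tumor lay at least 1.75 above its own control. Aldoa rose by 2.24 ± 0.36 on the log2 scale (4.72-fold; limma, adjusted p = 1.73e-06), and 1.50% of all genes tested had a higher ratio. The control on array 8 was highest, at 15.48 against 14.54 to 14.83, and that array gave the smallest ratio; without it the ratio was 2.31. Over the 8 arrays the ratio varied about as much as that of a typical gene, since 51.3% of all genes tested had a larger SD.

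The levels of Aldoc, the aldolase best known from brain, were 11.00 to 13.27 in tumor (median 12.72) and 11.39 to 13.69 in control (median 13.20), and the groups overlapped. Its log2 ratio of -0.36 ± 0.78 did not pass the test (below 0 on 7 arrays; limma, adjusted p = 0.239). Array 1 stood at 1.16 and array 7 at -1.71. The controls of arrays 1 and 2 were low, at 11.50 and 11.39, against 12.59 to 13.69. Without array 1 the ratio was -0.57, with an adjusted p of 0.0272 (limma), still short of 2-fold.

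Pyruvate kinase makes pyruvate and ATP in the last step. Pkm had levels of 10.39 to 13.39 in tumor (median 11.42) and 9.36 to 10.69 in control (median 9.98). The groups overlapped at tumors 4, 5 and 6 (10.53, 10.39 and 10.40), although each tumor was above its own control. Pkm rose by 1.47 ± 0.92 on the log2 scale (2.77-fold, 8 of 8 arrays; limma, adjusted p = 0.00196). Ratios ran from 0.02 on array 6 to 2.70 on array 2 and 2.59 on array 8. The M1 and M2 splice forms were not told apart: the gene had 1 probe, and its place in the transcript was not used here.

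Pklr, whose downstream start holds the carbohydrate element shown above, had levels of 9.11 to 10.06 in tumor (median 9.60) and 8.79 to 9.90 in control (median 9.53). The groups overlapped almost completely. Its log2 ratio was 0.13 ± 0.55, above 0 on 5 arrays (limma, adjusted p = 0.545). The ratio reached 1.00 on array 2 and was -0.64, -0.50 and -0.23 on arrays 3, 4 and 8. The erythroid and liver transcripts of Pklr share most of their sequence, and the probe was not assigned to either.

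**Figure D2:**
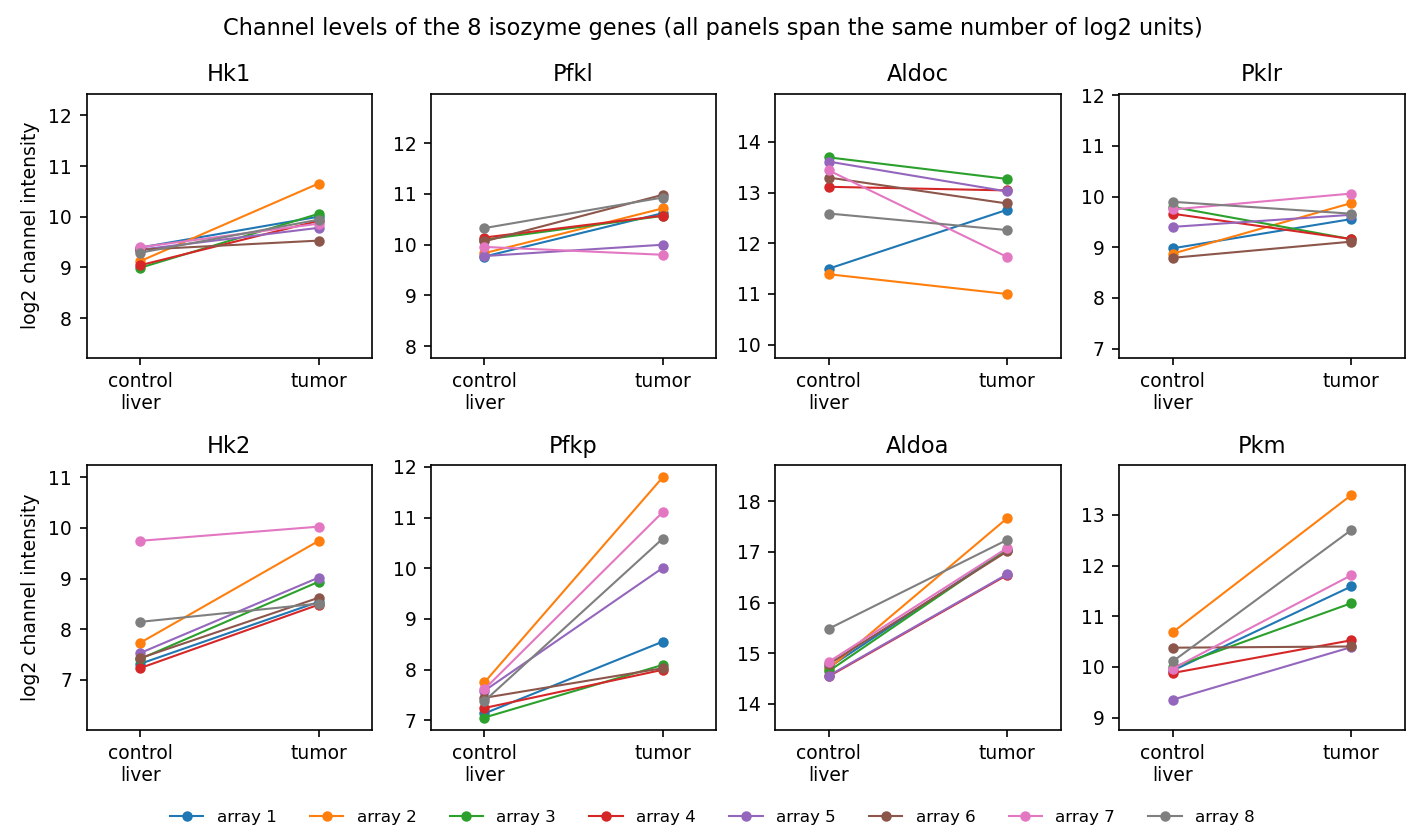
Log2 channel intensity of the 8 isozyme genes in control liver and tumor, with a line for each array; every panel spans the same number of log2 units, and panels are not compared in height because they are different probes. Aldoa climbs on all 8 arrays, Pfkp splits into 4 steep and 4 shallow lines, and the control of Hk2 on array 7 stands at 9.74.

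Isozymes of the same step were then compared by the difference of their log2 ratios within each array, over 8 pairs. The pairs were chosen with earlier results of these data known. They were tested with an exact two-sided sign-flip permutation test and Benjamini-Hochberg adjustment over the pairs. The smallest p this test can give with 8 arrays is 0.00781. The 4 pairs made of the 8 genes are given here. In 3 of these 4 pairs the isozymes changed unequally at an adjusted p under 0.05, with the higher ratio in Aldoa, Pkm and Pfkp.

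The ratio of Aldoa exceeded that of Aldoc by 2.60 ± 0.85 (SD, n = 8), higher on 8 of 8 arrays (exact permutation test, adjusted p = 0.0208), with a 95% interval of 1.94 to 3.34 before adjustment. The gap was smallest on array 1, at 1.16, where Aldoc had its highest ratio, and largest on array 7, at 3.95, where Aldoc had its lowest. Hk2 and Hk1 differed by 0.44 ± 0.49, positive on 6 arrays, with an interval of 0.00 to 0.84 before adjustment (exact permutation test, adjusted p = 0.0625). The exceptions were arrays 7 and 8, at -0.19 and -0.29, on which the Hk2 ratio was smallest.

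Pkm exceeded Pklr by 1.34 ± 0.91 on 7 of 8 arrays (exact permutation test, adjusted p = 0.0312). Array 6 was the exception, at -0.29, and array 8 had the largest gap, at 2.82. Pfkp exceeded Pfkl by 1.59 ± 1.49 on 7 of 8 arrays (exact permutation test, adjusted p = 0.0375), again with array 6 below 0, at -0.33. Both calls were lost when any 1 array other than array 6 was left out, at differences of 1.12 to 1.41 for Pkm and 1.30 to 1.77 for Pfkp. With fewer arrays the smallest p this test can give is larger. Without array 6 both calls stood, at 1.57 for Pkm and 1.87 for Pfkp (exact permutation test, adjusted p = 0.025 for each). The losses thus came where array 6, below 0 in both pairs, was kept. They cannot tell whether single arrays carry the differences. The Pfkp difference was also lost when both of its probes were averaged, at 0.59 (exact permutation test, adjusted p = 0.188).

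**Figure D3:**
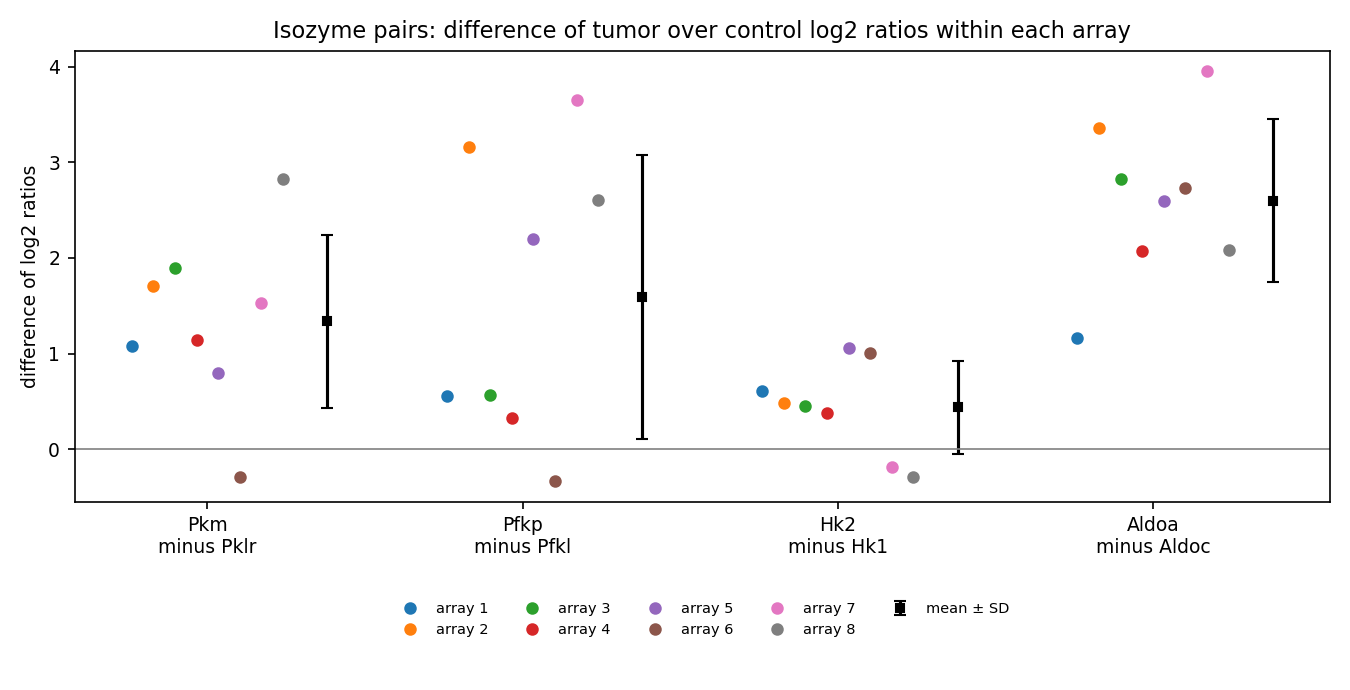
Difference of the tumor over control log2 ratios of 2 isozymes within each of 8 arrays, with mean ± SD in black. Aldoa minus Aldoc lies above 0 on all 8 arrays, from 1.16 to 3.95, Pkm minus Pklr and Pfkp minus Pfkl are below 0 on array 6, and Hk2 minus Hk1 stays between -0.29 and 1.06.

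Of 25 other glycolysis genes, all of them tested, 3 were called higher and 3 lower, against 9.54% and 5.94% of all genes tested. Their median log2 ratio was -0.09, against 0.03 for all genes. At the hexokinase step, Hkdc1, a hexokinase-like protein, rose by 4.40 ± 1.65 (21.1-fold; limma, adjusted p = 9.10e-05). Its tumor levels ran from 7.41 to 13.79 (median 12.67) and its control levels from 6.79 to 8.55 (median 7.73). Tumor 3 was the low one, with a ratio of 0.62 against 4.08 to 5.88 in the others.

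Gpi1, which converts glucose phosphate to fructose phosphate, rose by 1.22 ± 0.76 (limma, adjusted p = 0.00197), with groups that did not overlap. Its ratio was 2.50 on array 2 and only 0.20 and 0.37 on arrays 4 and 5. Of the enzymes that make and break down an activator of phosphofructokinase, Pfkfb4 rose by 1.57 ± 0.82 (limma, adjusted p = 7.15e-04) and Pfkfb1, the liver form, fell by 1.08 ± 0.49 (limma, adjusted p = 4.21e-04). Pfkfb4 was at -0.10 on array 8 and positive on the other 7. Fbp1, which runs the phosphofructokinase step backwards in gluconeogenesis, fell by 1.57 ± 1.30 (limma, adjusted p = 0.00796). Its ratio was -0.12, 0.44 and -0.55 on arrays 2, 7 and 8, where Pfkp was highest, and -3.04 to -1.90 on the others, array 5 included. Galm, which interconverts forms of glucose, fell by 1.03 ± 0.24 (limma, adjusted p = 2.73e-05). Pfkfb1 lost its call without array 3 (-0.95), and Galm without array 1 (-0.998) or array 7 (-0.97).

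The shared enzymes below aldolase, which have no liver-specific isozyme in the list, were not called. Gapdh had a log2 ratio of 0.71 ± 0.55 (limma, adjusted p = 0.0076), Eno1 0.55 ± 0.56 (adjusted p = 0.0256), Tpi1 -0.09 ± 0.58 and Pgk1 -0.38 ± 0.67. Ldha, which turns pyruvate into lactate, was at -0.68 ± 0.62 (limma, adjusted p = 0.0151), below 0 on 7 arrays and short of 2-fold. Several of these genes have many processed pseudogenes, and probe specificity was not checked.

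**Figure D4:**
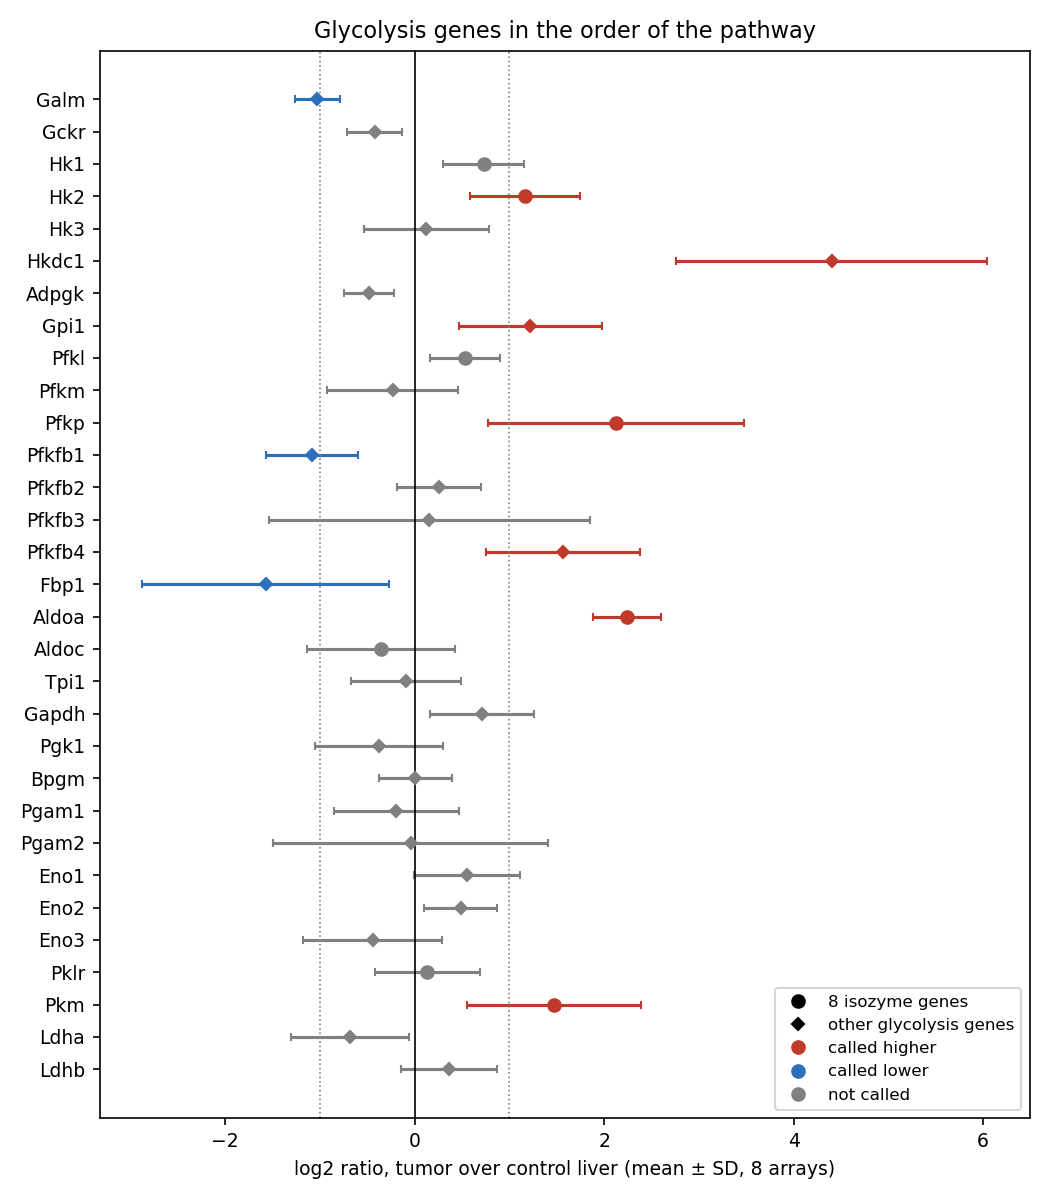
Mean log2 ratio ± SD over 8 arrays for the 8 isozyme genes (circles) and 23 of the 25 other glycolysis genes (diamonds), from the first step at the top to lactate dehydrogenase at the bottom; red marks genes called higher, blue genes called lower and grey genes not called. Calls, some higher and some lower, are seen from the first step down to aldolase and again at pyruvate kinase. None is seen from Tpi1 to Eno3, where Gapdh (0.71), Eno1 (0.55) and Eno2 (0.48) had an adjusted p under 0.05 (limma) but were short of 2-fold.

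Factors known to act on these genes were read from a list of 11, of which 2 were called higher and 0 lower. The shares over all genes tested were 9.54% and 5.94%. Myc, which activates many glycolytic genes, rose by 2.28 ± 0.41 (limma, adjusted p = 3.01e-06), and its levels of 9.21 to 10.36 in tumor and 7.21 to 7.59 in control did not overlap. Hnrnpa1, a splicing factor that favours the M2 form of Pkm, rose by 1.14 ± 0.36 (limma, adjusted p = 7.21e-05). The other splicing factors were Ptbp1 (0.00 ± 0.23), Hnrnpa2b1 (-0.11 ± 0.50), Srsf3 (-0.10 ± 0.31) and Rbm4 (-0.72 ± 0.34), of which none was called. Of the transcription factors, Hif1a stood at 0.22 ± 0.47, Mlxipl at 0.28 ± 0.87, Srebf1 at -0.07 ± 1.01 and Hnf4a at -0.29 ± 0.30, and none was called.

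The genes whose log2 ratios ran most like those of the isozymes over the 8 arrays were picked by Pearson correlation among 12768 genes, as a description with no test. For Pfkp these were the glucose transporter Slc2a1 (r = 0.98), Pdss1 (0.98) and Endog (0.97). For Pkm they were Nsa2 (0.97), Taf3 (0.97) and Rmdn2 (0.97), for Pklr Ptprj (0.98), Clca3a1 (0.97) and Clca3a2 (0.97), and for Aldoa Ercc1 (0.96), Mmp11 (0.96) and Lipo3 (0.96). A high r does not mean the same direction: Rmdn2 (-1.57) and Endog (-0.69) had mean log2 ratios below 0. Those of the other genes named here were above 0, but barely so for Nsa2 (0.01) and Ptprj (2.47e-04). All of these values share the same 8 arrays and control channels. The highest r among so many genes over 8 arrays can be this high for unrelated genes, so these values do not show a link.

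Markers of other cells were also read on each array. On array 8 the control channel held skeletal muscle transcripts: the summed level of 16 muscle markers was 16.86 there, against 10.43 to 10.50 in the other controls, with 16 of 16 well above background, and Acta1 stood at 13.81 and Ckm at 11.42. The tumor channel of that array had a summed level of 12.92, against 10.45 to 10.58. Muscle uses Aldoa, Hk2 and Pkm, and on array 8 the muscle forms Pgam2, Eno3 and Pfkm had control levels of 10.71, 12.34 and 11.62, their highest. Without array 8 the 4 calls of the isozymes stood, with log2 ratios of 2.31 for Aldoa, 1.28 for Hk2, 1.31 for Pkm and 1.97 for Pfkp.

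For the marker counts that follow, 9.54% of all genes tested were called higher and 5.94% lower. Macrophage markers had 4 of 9 tested called higher and 0 lower. Their summed levels were 14.40 to 16.15 in tumor and 13.95 to 14.67 in control. Stellate cell and fibroblast markers, with 6 of 8 called higher, had 14.08 to 16.58 in tumor and 15.10 to 15.54 in control. Bile duct markers, with 3 of 6 called higher, had 11.44 to 16.62 in tumor and 10.76 to 12.74 in control, and endothelial markers, with 1 of 6 higher and 1 lower, had 11.97 to 12.72 and 13.00 to 13.30. These cells also use Hk1, Hk2, Pfkp and Pkm, and the part of their RNA in these results was not tested. Tumor 8, with ratios of 3.21 for Pfkp and 2.59 for Pkm, had the lowest of each of these summed levels among the tumors. Tumor 2, with ratios of 4.05 and 2.70, had 16.07 for macrophage, 16.13 for stellate and fibroblast, 13.33 for bile duct and 12.72 for endothelial markers. Tumor 7, with ratios of 3.50 and 1.84, had 15.41, 16.58, 13.74 and 12.21 in the same order. Erythroid markers had 0 of 5 tested called higher and 1 lower. Their summed levels over 8 probed genes were 15.70 to 17.57 in tumor and 16.08 to 16.53 in control. Tumors 2 and 8 had the highest, at 17.57 and 17.55. Tumor 3, with ratios of 1.04 for Pfkp and 1.26 for Pkm, had 17.02. The other tumors, tumor 7 included, had 15.70 to 16.39. The part of erythroid RNA in these ratios was not tested. Hepatocyte markers, with 4 of 9 called lower, had 18.97 to 19.62 in tumor and 20.11 to 20.49 in control, so both channels held hepatocyte RNA.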

How the data were processed

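Median spot and background intensity of both dyes came from the deposited Agilent scanner files, 1 per array, all on 1 slide. Per the file headers, they were made with Feature Extraction 10.9.1.1 (10.9 in the submitters' processing notes), which also gives processed intensity and a log10 ratio of red over green; the deposited log10 ratio was not used. Signals were corrected with normexp (offset 50) then by loess on each array, giving control and outlier spots weight 0 (limma 3.58.1 in R 4.3.3; tables with data.table, 1.17.8). Channel levels were taken after Aquantile normalization. No spot was saturated. Probes entered the test where either channel was well above background on 4 or more arrays, and the brightest tested probe stood for a gene. Symbols came from RefSeq accessions (GRCm38.p6) for 26582 of 55681 probes. The log2 ratio was tested against 0 with lmFit and eBayes, calls needed 2-fold or more and an adjusted p below 0.05, and the procedure was tested on simulated data. The share of probes well above background was 38.5% to 51.9% in tumor and 45.1% to 54.3% in control channels; the number of arrays limits the precision. The labels call the tumors biological replicates but name no animals, so p-values measure the spread between these samples, which may be partly technical.

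The isozymes, gene lists and pairs were chosen with earlier results of these data known. Named are the isozymes, every called gene of the other glycolysis list, the regulators and the 3 genes most like each of Aldoa, Pkm, Pklr and Pfkp; 3 genes of these lists, and 4 of the 8 pairs, are not reported here; uncalled genes below aldolase and muscle forms were named after their values were seen. Alternatives were other background corrections and normalizations, 2 other filters, averaged probes, other variance models and weights, slide rows, arrays 1 and 2 averaged, and each array left out.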

Additional observations from a re-analysis of the deposited data

Results flagged for a closer look

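Among 28 sets of 8 values screened for 1 array far from the others, 3 stood out; chance alone gives about 1 in 20. The Hk1 level of tumor 2 was 10.66, against 9.53 to 10.06 in the other tumors. The Hk2 level of the control on array 7 was 9.74, against 7.23 to 8.15, and the tumor of that array was also the highest, at 10.02. The Aldoa level of the control on array 8, which also held muscle transcripts, was 15.48, against 14.54 to 14.83; the part of muscle RNA in it was not tested.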

How the results depend on the processing

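The counts of 4 isozymes called higher and 0 lower were the same under all 20 settings that refit the whole table. All genes called lower numbered 1533 with the processed signals, against 850, and those called higher 2012, against 1365. Hk2 minus Hk1 passed with averaged probes (0.73), median centring (0.48), the processed signals (0.73) and a normexp offset of 16 (0.56). Pfkp minus Pfkl was lost with averaged probes (0.59). With arrays 1 and 2 averaged, which also raises the smallest possible p, Pkm minus Pklr (1.33) and Pfkp minus Pfkl (1.55) were lost. With 1 array left out these differences ranged from 1.12 to 1.57 and from 1.30 to 1.87. The controls of arrays 1 and 2 differed least of all control pairs (SD 0.26 over genes, against 0.33 to 0.56). Hnrnpa1 fell short of 2-fold with the processed signals (0.95) and averaged probes (0.73), as did Gpi1 (0.94) and Galm (-0.97) with array weights. The tests used the pairing of tumor and control within each array, and the labels give 1 group. The cause was not tested.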
